A study of Mus musculus with 24 samples.

Results

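The large subunit of the mouse ribosome is built largely in the nucleolus, and 41 genes that encode nucleolar factors of this pathway were followed here, chosen by name from the 54242 gene symbols in the deposited expression table. All 41 were found and all 41 passed the filter on low values that left 16447 genes for testing. They were arranged by role into the PeBoW complex, rRNA methyltransferases, DEAD-box helicases, nucleolar GTPases, factors of ITS2 processing with the Pelp1-Tex10-Senp3 complex, AAA ATPases with an adaptor, Brix-domain and 5S RNP factors, other pre-60S assembly factors, and nucleolar phosphoproteins and regulators.

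Precursor particles of the large subunit form on a long rRNA transcript, from which spacers such as ITS2 are cut out while assembly factors bind, remodel the particle and leave it. Helicases, GTPases and AAA ATPases drive these steps, and the factors are recycled for the next particle. Pluripotent stem cells, which grow and divide quickly, are known for high expression of this machinery.

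RNA-seq was measured in 24 libraries of CGR8, an established line of mouse embryonic stem cells (ESCs), in 8 groups of 3. Every cell was transfected with a pool of siRNAs, either non-targeting (si-CTL) or directed against Rsl24d1 (si-Rsl24d1), which encodes an assembly factor of the large subunit. Day 0 groups were kept in serum with LIF and collected 72 h after transfection, and day 4 groups were transfected, reseeded and treated with 10 nM retinoic acid (RA) for 4 days. In the RESCUE groups, doxycycline induced an ectopic Rsl24d1 open reading frame. The groups without rescue received no doxycycline, and their labels name an empty vector. Single sample descriptions give 48 h in place of 72 h at day 0, and the labels' accounts of the day 4 medium differ in whether LIF was present. Day 4 and day 0 differed in RA, in time since transfection and in reseeding, which cannot be told apart. Rescued and other libraries likewise differed in doxycycline and vector besides the ectopic Rsl24d1. All groups come from 1 cell line, and the 3 libraries of a group are described as independent triplicates.

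Values are log2(TPM + 1), where TPM scales each library to the same sum of transcripts per unit of length, so levels of different genes can be compared on this scale but the number of reads is unknown. Differences are log2 fold changes of TPM + 1 with their standard error (SE) from limma, and p-values were adjusted over all 16447 genes by the Benjamini-Hochberg method. A gene was called higher or lower at an adjusted p below 0.01, and a second count added a change over 1.8-fold. With 3 libraries against 3, an exact permutation test cannot go below p = 0.1, so the tests rest on the spread pooled by limma. Bulk RNA cannot tell fewer cells of a type from less RNA of a gene per cell.

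Rsl24d1 itself read 7.22, 7.14 and 7.10 in si-CTL and 5.23, 5.28 and 5.07 in si-Rsl24d1 cells at day 0 without rescue, and with rescue 7.31, 7.24 and 7.21 in si-CTL and 6.70, 6.60 and 6.94 in si-Rsl24d1 cells. The rescue values hold transcripts of both the endogenous and the ectopic gene, which the symbol does not separate. The change without rescue was -1.95 (SE 0.07, adjusted p = 3.2e-14) by limma. The day 4 values were 6.60, 6.67 and 6.61 in si-CTL cells and 6.50, 6.61 and 6.65 in cells labelled si-Rsl24d1, a change of -0.041 (SE 0.07, adjusted p = 0.66). The targeted transcript was therefore not called lower in the day 4 libraries with that label, the libraries of both labels overlapped, and day 4 directions are given for the labels only. Markers of pluripotent stem cells (8 genes) summed to between 4629 and 6042 TPM in the day 0 libraries, and none was at 0 throughout a group. Markers of extraembryonic endoderm (5 genes) summed to 3.68 to 7.61 TPM and those of fibroblasts (5 genes) to 21.3 to 46.7 TPM at day 0.

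The 100 bases upstream of the transcription start are shown for 6 of these genes, taken from RefSeq on GRCm38.p6 and written 5′ to 3′ on the strand of the gene. For Nle1, Nsa2 and Brix1 the stretch ends 16, 11 and 10 bases before the RefSeq start, so that it stays outside the annotated transcripts. Nol9, Mdn1 and Nle1 are shown because they were among those with the deepest falls at day 4, Nsa2 because it was the member called higher there, Brix1 because it rose most with si-Rsl24d1, and Nop2 because it holds both an E-box and an ETS motif. Capitals mark CACGTG, the E-box bound by Myc and related factors, and CCGGAAG, a core motif of ETS factors, searched on both strands.
Nol9 (chr4:152039221-152039320, plus strand): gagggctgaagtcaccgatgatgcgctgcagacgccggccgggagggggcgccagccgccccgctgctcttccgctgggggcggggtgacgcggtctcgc
Mdn1 (chr4:32657019-32657118, plus strand): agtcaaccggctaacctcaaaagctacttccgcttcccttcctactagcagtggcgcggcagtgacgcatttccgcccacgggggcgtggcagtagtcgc
Nle1 (chr11:82908412-82908511, minus strand): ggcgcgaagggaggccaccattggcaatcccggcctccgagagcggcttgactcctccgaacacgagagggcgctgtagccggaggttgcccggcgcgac
Nop2 (chr6:125131783-125131882, plus strand): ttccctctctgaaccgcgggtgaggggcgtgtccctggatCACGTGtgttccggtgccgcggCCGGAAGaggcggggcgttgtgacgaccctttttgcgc
Brix1 (chr15:10485948-10486047, minus strand): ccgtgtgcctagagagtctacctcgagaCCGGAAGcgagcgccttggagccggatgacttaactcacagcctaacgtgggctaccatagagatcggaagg
Nsa2 (chr13:97137938-97138037, minus strand): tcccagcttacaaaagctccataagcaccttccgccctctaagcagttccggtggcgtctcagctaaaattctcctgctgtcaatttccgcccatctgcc
Of the 41 genes, 34 have an entry in the RefSeq promoter table. In the 250 bases upstream, CACGTG was found for 3 of the 34 (8.8%; Nop2, Pelp1 and Rpf2), against 9.8% of the 10704 tested protein-coding genes with an entry and 6.0% of all 32851 promoters. CCGGAAG was found for 9 (26.5%), against 15.2% of tested genes and 6.9% of all promoters. These 9 were Brix1, Ddx54, Las1l, Nip7, Nop2, Nvl, Rpf2, Surf6 and Tex10. The palindromic motif of NRF1 was found for 0 members and 1.8% of tested genes, and that of BANP for 1 member, Nol9, and 1.0% of tested genes. These matches describe letters in the window and were not tested.

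The genes are spread over 16 chromosomes. None overlaps another protein-coding gene on its own strand, but 13 overlap one on the opposite strand in gencode vM21, among them Bop1 (Mroh1 and Scx), Gnl3 (Pbrm1), Rrp1b (Hsf2bp), Mak16 (Tti2) and Nsa2 (Gfm2 and Fam169a). The study's methods give a stranded kit and the labels a poly-A kit, so for these 13 reads of the partner may be included if strand was not used. Gnl3, Ppan and Ncl host snoRNA genes on their own strand, 7.3% of members against 1.7% of 13569 tested protein-coding genes. Npm1 has many processed pseudogenes, and how reads were divided among the copies is uncertain.

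As a group, the factors were strongly expressed. The median of their means over all 24 libraries was 6.23 on the log2(TPM + 1) scale, and the median member stood at percentile 89.0 of tested genes by mean level. Npm1, which encodes the histone chaperone nucleophosmin, was highest with 5739 TPM, followed by the RNA-binding protein gene Ncl (nucleolin, 831 TPM), Mybbp1a (252 TPM) and Gnl3 (nucleostemin, 226 TPM). Ddx51 was lowest with 17.8 TPM, at percentile 62.0, and Noc3l (22.3 TPM), Surf6 (27.1 TPM) and Mdn1 (31.8 TPM) were next. Within groups the members varied little. The median SD over members and groups was 0.054, and the largest was 0.27.

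Day 4 libraries held less of this machinery than day 0 libraries in every arm. The members' TPM summed to between 11822 and 12082 in the 3 si-CTL libraries at day 0 and to between 8815 and 9094 at day 4. Without Npm1, which alone makes up more of the sum than all the others, the ranges were 5497 to 5747 and 3807 to 3868 TPM. Averaged over the 41 genes, log2(TPM + 1) lay between 6.65 and 6.88 in the 12 day 0 libraries and between 6.25 and 6.40 in the 12 day 4 libraries, so the days did not overlap.

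**Figure D1:**
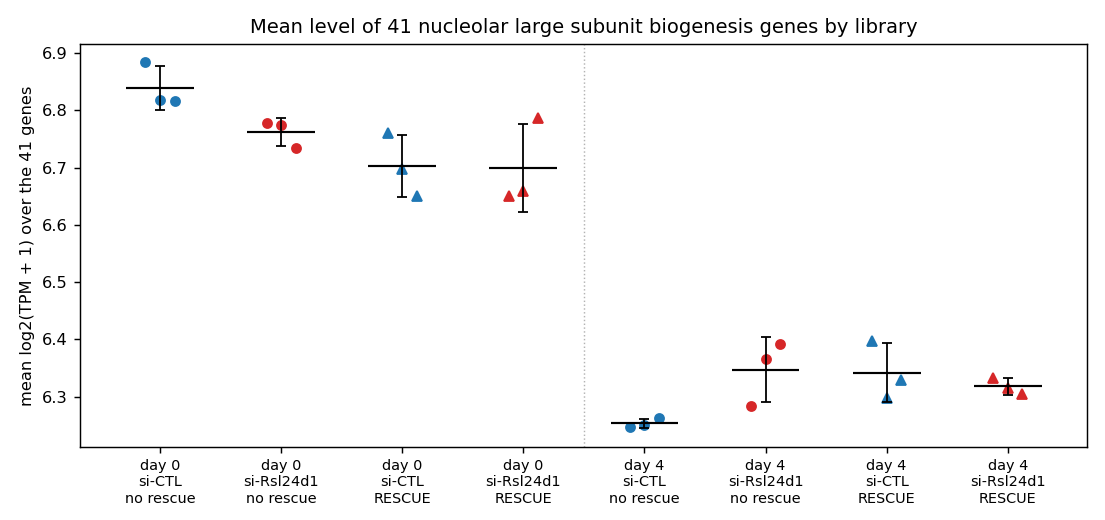
Mean log2(TPM + 1) over the 41 genes (y axis) in each library of the 8 groups (x axis), with blue for si-CTL, red for si-Rsl24d1, circles without and triangles with rescue, and bars for the group mean and SD (n = 3). The 12 day 0 libraries lie between 6.65 and 6.88, all above the 12 day 4 libraries between 6.25 and 6.40.

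The comparison of day 4 with day 0 asks how the factors changed over RA treatment. In si-CTL cells without rescue, 36 of the 41 were called lower by limma, 1 was called higher and 4 were not called. Among all 16447 genes, 36.7% were called lower and 24.1% higher. The share of members called lower was 87.8%. With the added limit of 1.8-fold, 11 members were lower and 0 higher, against 8.24% and 6.77% of all genes. The 3 day 4 libraries lay below all 3 day 0 libraries for 39 members, where this held for 43.5% of all genes. The median change was -0.55 over the members and -0.10 over all genes.

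The size of that shift of all genes depends on the scale. Rescaling libraries by median of ratios centres the median change of all genes by construction (here 0.00076), so it cannot tell where the shift came from. After this rescaling the members' median was -0.42, with 30 lower and 2 higher against 31.3% and 30.5% of all genes. The calls of Brix1, Rpf1, Rpf2, Las1l, Ebna1bp2 and Npm1 were lost on that scale, and Gnl2 was called higher. Leaving out any 1 of the 6 libraries left 35 or 36 members lower, against 33 to 35.8% of all genes.

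**Figure D2:**
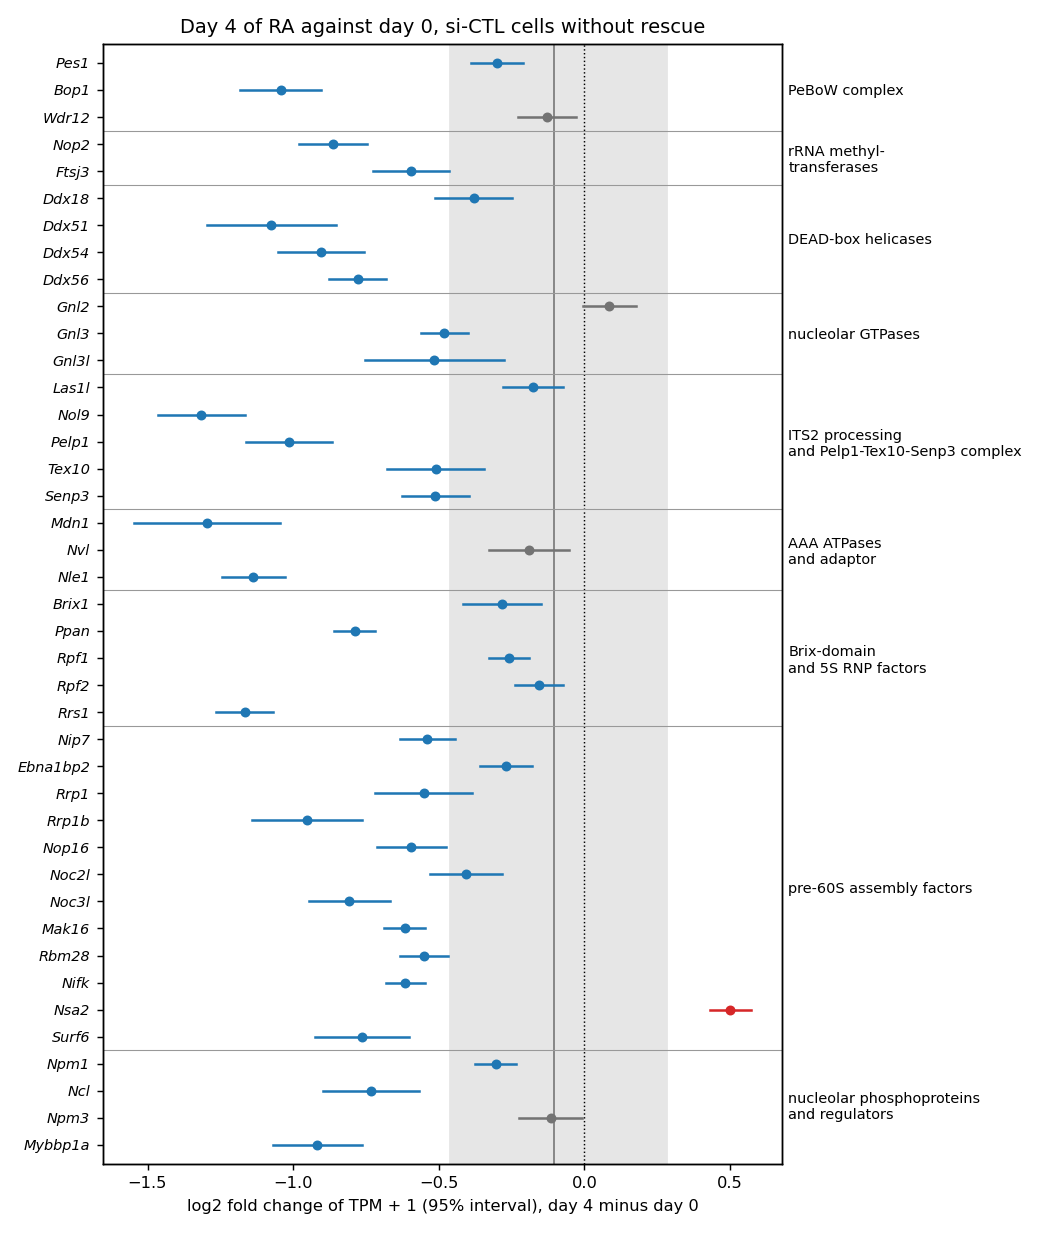
Log2 fold change of TPM + 1 between day 4 and day 0 (x axis) in si-CTL cells without rescue for the 41 genes (y axis, by role), with 95% intervals. Blue genes were called lower, Nsa2 in red was called higher, grey genes were not called, the shaded band spans the middle 50% of all 16447 genes and the grey line marks their median of -0.10.

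The PeBoW complex, which is needed to process the precursors of 28S and 5.8S rRNA, did not move as 1 unit. Values by library are on the log2(TPM + 1) scale, in the order of replicates 1 to 3. At day 0 without rescue, Bop1 read 6.56, 6.53 and 6.52 in si-CTL and 6.16, 6.18 and 6.19 in si-Rsl24d1 cells, and with rescue 6.47, 6.39 and 6.28 in si-CTL and 6.20, 6.21 and 6.40 in si-Rsl24d1 cells. At day 4 its values were 5.49, 5.49 and 5.49 for si-CTL and 5.47, 5.67 and 5.61 for the si-Rsl24d1 label without rescue, and with rescue 5.63, 5.34 and 5.48 for si-CTL and 5.52, 5.48 and 5.44 for the si-Rsl24d1 label. All 12 day 4 values lay below all 12 of day 0, and in si-CTL cells without rescue the change was -1.04 (SE 0.065, adjusted p = 3.3e-11) by limma, from 91.8 to 44 TPM. Its partners changed less: Pes1 by -0.30 (SE 0.042, adjusted p = 2.7e-06), which was called, and Wdr12 by -0.13 (SE 0.047, adjusted p = 0.019), which was not.

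Both rRNA methyltransferases were called lower at day 4. The si-CTL libraries read 6.76, 6.63 and 6.65 for Nop2 at day 0 and 5.84, 5.77 and 5.84 at day 4 without rescue, and 6.59, 6.51 and 6.43 at day 0 and 5.89, 5.74 and 5.80 at day 4 with rescue. Libraries labelled si-Rsl24d1 read 6.67, 6.67 and 6.66 at day 0 and 5.76, 5.90 and 5.88 at day 4 without rescue, and 6.61, 6.56 and 6.77 at day 0 and 5.82, 5.77 and 5.74 at day 4 with it. Nop2, which methylates a cytosine of 28S rRNA, changed by -0.86 (SE 0.055, adjusted p = 4e-11), and its days did not overlap in any arm. Without rescue, Ftsj3 was at 7.59, 7.49 and 7.49 (si-CTL, day 0), 7.44, 7.43 and 7.39 (si-Rsl24d1, day 0), 6.91, 6.96 and 6.91 (si-CTL, day 4) and 6.95, 7.12 and 7.14 (labelled si-Rsl24d1, day 4). With rescue, it was at 7.45, 7.37 and 7.28 (si-CTL, day 0), 7.23, 7.31 and 7.45 (si-Rsl24d1, day 0), 7.25, 7.04 and 7.12 (si-CTL, day 4) and 7.18, 7.21 and 7.13 (labelled si-Rsl24d1, day 4). Ftsj3, a 2′-O-methyltransferase, was lower at day 4 in every arm without overlap within an arm. It changed by -0.60 (SE 0.061, adjusted p = 4.5e-08), and with rescue by -0.23 in si-CTL cells and by -0.15 in cells labelled si-Rsl24d1, of which the last was not called (adjusted p = 0.033).

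All 4 DEAD-box helicases, RNA-dependent ATPases that open and rearrange rRNA, were called lower in si-CTL cells without rescue. For Ddx51, day 0 libraries gave 4.82, 4.72 and 4.52 with si-CTL and 4.66, 4.55 and 4.60 with si-Rsl24d1, and when rescued 4.58, 4.74 and 4.59 with si-CTL and 4.51, 4.59 and 4.45 with si-Rsl24d1. The day 4 libraries gave 3.75, 3.50 and 3.59 with si-CTL and 3.54, 3.83 and 3.94 with the si-Rsl24d1 label, and when rescued 3.68, 3.80 and 3.44 with si-CTL and 3.84, 3.91 and 3.71 with that label. Ddx51, the most weakly expressed member, changed by -1.08 (SE 0.10, adjusted p = 2.1e-08) and stayed apart between the days in each arm. At day 0 without rescue, Ddx54 read 5.88, 5.74 and 5.77 in si-CTL and 5.63, 5.66 and 5.60 in si-Rsl24d1 cells, and with rescue 5.58, 5.53 and 5.46 in si-CTL and 5.42, 5.46 and 5.67 in si-Rsl24d1 cells. At day 4 its values were 4.92, 4.81 and 4.94 for si-CTL and 4.79, 5.07 and 5.05 for the si-Rsl24d1 label without rescue, and with rescue 4.99, 4.88 and 4.98 for si-CTL and 4.92, 4.88 and 4.84 for the si-Rsl24d1 label. All day 4 values of Ddx54 lay below all day 0 values, and its change was -0.91 (SE 0.07, adjusted p = 7.4e-10). Ddx56 changed by -0.78 and Ddx18 by -0.38. In rescued si-CTL cells 3 of the helicases were called lower, and Ddx18, with a change of 0.0094, was not.

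Among the nucleolar GTPases, Gnl2 lay higher and Gnl3 lower at day 4 in every arm, while the direction of Gnl3l differed between arms. The si-CTL libraries read 6.23, 6.17 and 6.12 for Gnl2 at day 0 and 6.24, 6.25 and 6.29 at day 4 without rescue, and 6.08, 6.06 and 6.00 at day 0 and 6.49, 6.48 and 6.42 at day 4 with rescue. Libraries labelled si-Rsl24d1 read 6.06, 6.08 and 6.02 at day 0 and 6.26, 6.40 and 6.41 at day 4 without rescue, and 5.97, 5.99 and 6.08 at day 0 and 6.39, 6.38 and 6.33 at day 4 with it. All 12 day 4 values lay above all 12 of day 0. Its change was 0.086 (SE 0.043, adjusted p = 0.082) in si-CTL cells without rescue, which was not called, and between 0.30 and 0.42 in the other 3 arms, where it was called higher. Without rescue, Gnl3 was at 7.97, 7.99 and 8.03 (si-CTL, day 0), 8.09, 8.07 and 8.08 (si-Rsl24d1, day 0), 7.49, 7.55 and 7.52 (si-CTL, day 4) and 7.70, 7.60 and 7.69 (labelled si-Rsl24d1, day 4). With rescue, it was at 7.98, 7.94 and 7.90 (si-CTL, day 0), 7.93, 8.05 and 8.04 (si-Rsl24d1, day 0), 7.69, 7.62 and 7.56 (si-CTL, day 4) and 7.66, 7.63 and 7.62 (labelled si-Rsl24d1, day 4). Gnl3, known as nucleostemin and expressed in stem and dividing cells, was lower in every day 4 library than in any of day 0 and changed by -0.48 (SE 0.038, adjusted p = 9.9e-10). For Gnl3l, day 0 libraries gave 5.82, 5.53 and 5.49 with si-CTL and 5.56, 5.51 and 5.48 with si-Rsl24d1, and when rescued 5.40, 5.22 and 5.14 with si-CTL and 5.20, 5.17 and 5.47 with si-Rsl24d1. The day 4 libraries gave 5.07, 5.06 and 5.16 with si-CTL and 5.25, 5.74 and 5.70 with the si-Rsl24d1 label, and when rescued 5.66, 5.42 and 5.61 with si-CTL and 5.41, 5.47 and 5.48 with that label. The days did not overlap for its paralogue Gnl3l in si-CTL cells, where it was lower at day 4 without rescue and higher with rescue. Without rescue the change was -0.52 (SE 0.11, adjusted p = 0.00042). In the other 3 arms Gnl3l was not called, with changes from 0.048 to 0.31.

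ITS2 is removed by the endonuclease Las1l with the polynucleotide kinase Nol9, and the Pelp1-Tex10-Senp3 complex acts on the same particles. At day 0 without rescue, Nol9 read 6.59, 6.41 and 6.38 in si-CTL and 6.32, 6.31 and 6.26 in si-Rsl24d1 cells, and with rescue 6.29, 6.21 and 6.15 in si-CTL and 6.11, 6.12 and 6.30 in si-Rsl24d1 cells. At day 4 its values were 5.11, 5.16 and 5.16 for si-CTL and 5.31, 5.52 and 5.62 for the si-Rsl24d1 label without rescue, and with rescue 5.36, 5.18 and 5.28 for si-CTL and 5.39, 5.34 and 5.40 for the si-Rsl24d1 label. Nol9 had the deepest fall of all 41 genes, -1.32 (SE 0.071, adjusted p = 3.2e-12) by limma, from 87.2 to 34.4 TPM, and all day 4 values lay below all of day 0. Las1l, its partner enzyme, changed by -0.18 (SE 0.048, adjusted p = 0.0031), a call lost under median of ratios scaling. The scaffold Pelp1 changed by -1.01 (SE 0.07, adjusted p = 1.3e-10), and Tex10 by -0.51 (SE 0.079, adjusted p = 1e-05). The si-CTL libraries read 8.14, 8.15 and 8.05 for Senp3 at day 0 and 7.61, 7.57 and 7.62 at day 4 without rescue, and 7.99, 7.92 and 7.88 at day 0 and 7.79, 7.64 and 7.69 at day 4 with rescue. Libraries labelled si-Rsl24d1 read 7.67, 7.69 and 7.55 at day 0 and 7.61, 7.74 and 7.79 at day 4 without rescue, and 7.71, 7.76 and 7.85 at day 0 and 7.50, 7.54 and 7.64 at day 4 with it. Senp3, a protease that removes SUMO, changed by -0.51 (SE 0.054, adjusted p = 7e-08) in si-CTL cells without rescue and was called lower in both rescued arms. In cells labelled si-Rsl24d1 without rescue, where the day 0 values lay below those of si-CTL cells, the days overlapped.

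Mdn1, a very large AAA ATPase that strips factors from the particle, and its adaptor Nle1 were both called lower in every arm. Without rescue, Mdn1 was at 5.82, 5.53 and 5.46 (si-CTL, day 0), 5.55, 5.45 and 5.30 (si-Rsl24d1, day 0), 4.23, 4.29 and 4.41 (si-CTL, day 4) and 4.44, 4.77 and 4.86 (labelled si-Rsl24d1, day 4). With rescue, it was at 5.40, 5.19 and 5.25 (si-CTL, day 0), 4.98, 5.07 and 5.36 (si-Rsl24d1, day 0), 4.87, 4.52 and 4.67 (si-CTL, day 4) and 4.60, 4.64 and 4.61 (labelled si-Rsl24d1, day 4). Every day 4 value of Mdn1 lay below every day 0 value, and its change was -1.30 (SE 0.12, adjusted p = 8.3e-09). It was smaller elsewhere, at -0.75 with the si-Rsl24d1 label without rescue, and with rescue -0.59 in si-CTL cells and -0.52 with that label. Nle1 changed by -1.14 (SE 0.051, adjusted p = 2.3e-13), and by -1.10, -1.11 and -1.12 in the other arms. For Nvl, day 0 libraries gave 6.08, 5.93 and 5.96 with si-CTL and 5.79, 5.75 and 5.65 with si-Rsl24d1, and when rescued 5.91, 5.81 and 5.70 with si-CTL and 5.58, 5.55 and 5.74 with si-Rsl24d1. The day 4 libraries gave 5.70, 5.85 and 5.86 with si-CTL and 5.89, 5.92 and 6.02 with the si-Rsl24d1 label, and when rescued 6.02, 5.88 and 5.87 with si-CTL and 5.85, 5.85 and 5.92 with that label. Nvl, another AAA ATPase of the nucleolus, changed by -0.19 (SE 0.065, adjusted p = 0.014), which was not called, although its 3 day 4 libraries lay below the 3 of day 0. In cells labelled si-Rsl24d1 it was called higher at day 4, by 0.22 without and 0.25 with rescue.

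Brix-domain proteins and the factors that bring in the 5S RNP were all called lower in si-CTL cells without rescue, over a wide range. At day 0 without rescue, Rrs1 read 6.16, 6.08 and 6.04 in si-CTL and 6.03, 6.00 and 6.01 in si-Rsl24d1 cells, and with rescue 5.96, 5.92 and 5.88 in si-CTL and 5.91, 5.88 and 5.99 in si-Rsl24d1 cells. At day 4 its values were 4.91, 4.95 and 4.92 for si-CTL and 5.02, 4.99 and 5.04 for the si-Rsl24d1 label without rescue, and with rescue 4.96, 4.77 and 4.89 for si-CTL and 5.00, 5.01 and 4.89 for the si-Rsl24d1 label. Rrs1, which acts with Rpf2 on the 5S RNP, changed by -1.17 (SE 0.046, adjusted p = 3.1e-14), and no arm overlapped between the days. Rpf2 itself changed by -0.16 (SE 0.039, adjusted p = 0.0014), and in rescued si-CTL cells by -0.073, which was not called. The si-CTL libraries read 7.46, 7.47 and 7.52 for Brix1 at day 0 and 7.18, 7.21 and 7.21 at day 4 without rescue, and 7.57, 7.29 and 7.56 at day 0 and 7.28, 7.26 and 7.24 at day 4 with rescue. Libraries labelled si-Rsl24d1 read 7.97, 7.81 and 7.82 at day 0 and 7.32, 7.11 and 7.24 at day 4 without rescue, and 7.60, 7.69 and 7.70 at day 0 and 7.29, 7.20 and 7.29 at day 4 with it. Brix1 was highest in si-Rsl24d1 cells at day 0, and within each arm its day 4 values lay below those of day 0. It changed by -0.28 (SE 0.063, adjusted p = 0.00053) in si-CTL cells without rescue, and Ppan and Rpf1, of the same protein family, by -0.79 and -0.26.

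Of the 12 other assembly factors, 11 were called lower at day 4 and 1 higher in si-CTL cells without rescue. Without rescue, Nsa2 was at 7.02, 7.12 and 7.09 (si-CTL, day 0), 7.22, 7.23 and 7.23 (si-Rsl24d1, day 0), 7.63, 7.58 and 7.53 (si-CTL, day 4) and 7.55, 7.49 and 7.46 (labelled si-Rsl24d1, day 4). With rescue, it was at 7.16, 7.20 and 7.14 (si-CTL, day 0), 7.17, 7.20 and 7.14 (si-Rsl24d1, day 0), 7.55, 7.61 and 7.62 (si-CTL, day 4) and 7.59, 7.56 and 7.52 (labelled si-Rsl24d1, day 4). Nsa2, which joins late nucleolar particles, changed by 0.50 (SE 0.034, adjusted p = 9.3e-11) in si-CTL cells, from 134 to 190 TPM, and every day 4 value lay above every day 0 value. It was the 1 member called higher in all 4 arms. For Rrp1b, day 0 libraries gave 6.25, 6.14 and 6.07 with si-CTL and 5.82, 5.84 and 5.74 with si-Rsl24d1, and when rescued 5.98, 5.83 and 5.79 with si-CTL and 5.67, 5.54 and 5.95 with si-Rsl24d1. The day 4 libraries gave 5.13, 5.17 and 5.31 with si-CTL and 5.32, 5.37 and 5.51 with the si-Rsl24d1 label, and when rescued 5.48, 5.24 and 5.38 with si-CTL and 5.33, 5.22 and 5.18 with that label. All day 4 values of Rrp1b lay below all of day 0. It changed by -0.95 (SE 0.089, adjusted p = 1.2e-08), the deepest fall in this role, and its paralogue Rrp1 by -0.55. At day 0 without rescue, Mak16 read 7.62, 7.52 and 7.55 in si-CTL and 7.92, 7.91 and 7.88 in si-Rsl24d1 cells, and with rescue 7.51, 7.44 and 7.45 in si-CTL and 7.58, 7.64 and 7.70 in si-Rsl24d1 cells. At day 4 its values were 6.92, 6.98 and 6.94 for si-CTL and 7.07, 7.08 and 7.08 for the si-Rsl24d1 label without rescue, and with rescue 7.13, 7.05 and 7.06 for si-CTL and 7.08, 7.10 and 7.08 for the si-Rsl24d1 label. Mak16, lower in all day 4 libraries, changed by -0.62 (SE 0.034, adjusted p = 4.5e-12). The si-CTL libraries read 6.44, 6.43 and 6.50 for Nifk at day 0 and 5.84, 5.85 and 5.83 at day 4 without rescue, and 6.39, 6.34 and 6.37 at day 0 and 6.03, 5.94 and 5.97 at day 4 with rescue. Libraries labelled si-Rsl24d1 read 6.68, 6.69 and 6.65 at day 0 and 5.98, 5.93 and 5.96 at day 4 without rescue, and 6.58, 6.57 and 6.64 at day 0 and 5.97, 6.03 and 6.00 at day 4 with it. Nifk, which binds the proliferation marker Ki-67, was also lower in each day 4 library than in any of day 0, and changed by -0.61 (SE 0.031, adjusted p = 1.3e-12). The other changes were -0.81 for Noc3l, -0.76 for Surf6, -0.59 for Nop16, -0.55 for Rbm28, -0.54 for Nip7, -0.41 for Noc2l and -0.27 for Ebna1bp2.

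Of the 4 nucleolar phosphoproteins and regulators, 3 were called lower and 1 was not in si-CTL cells without rescue. Without rescue, Npm1 was at 12.59, 12.63 and 12.68 (si-CTL, day 0), 12.56, 12.61 and 12.53 (si-Rsl24d1, day 0), 12.29, 12.35 and 12.35 (si-CTL, day 4) and 12.40, 12.30 and 12.34 (labelled si-Rsl24d1, day 4). With rescue, it was at 12.63, 12.60 and 12.62 (si-CTL, day 0), 12.58, 12.56 and 12.61 (si-Rsl24d1, day 0), 12.35, 12.32 and 12.35 (si-CTL, day 4) and 12.43, 12.42 and 12.44 (labelled si-Rsl24d1, day 4). The days did not overlap, and Npm1 changed by -0.30 (SE 0.033, adjusted p = 1.1e-07), a small fold but, at this level, from 6359 to 5147 TPM. For Ncl, day 0 libraries gave 10.14, 9.99 and 10.02 with si-CTL and 9.90, 9.94 and 9.80 with si-Rsl24d1, and when rescued 9.89, 9.78 and 9.70 with si-CTL and 9.64, 9.67 and 9.93 with si-Rsl24d1. The day 4 libraries gave 9.24, 9.37 and 9.35 with si-CTL and 9.37, 9.60 and 9.61 with the si-Rsl24d1 label, and when rescued 9.65, 9.49 and 9.57 with si-CTL and 9.60, 9.63 and 9.51 with that label. Ncl was lower at day 4 within every arm. It changed by -0.73 (SE 0.077, adjusted p = 6.6e-08), and was called lower in both arms without rescue and in neither with rescue. At day 0 without rescue, Mybbp1a read 8.53, 8.40 and 8.35 in si-CTL and 8.42, 8.40 and 8.34 in si-Rsl24d1 cells, and with rescue 8.27, 8.15 and 8.07 in si-CTL and 8.13, 8.12 and 8.33 in si-Rsl24d1 cells. At day 4 its values were 7.48, 7.53 and 7.52 for si-CTL and 7.51, 7.77 and 7.73 for the si-Rsl24d1 label without rescue, and with rescue 7.67, 7.46 and 7.59 for si-CTL and 7.59, 7.51 and 7.46 for the si-Rsl24d1 label. Mybbp1a, a repressor of rRNA gene transcription, was lower in all day 4 libraries and changed by -0.92 (SE 0.072, adjusted p = 9.4e-10). The si-CTL libraries read 7.76, 7.87 and 7.87 for Npm3 at day 0 and 7.75, 7.71 and 7.69 at day 4 without rescue, and 7.92, 7.96 and 8.03 at day 0 and 7.47, 7.54 and 7.50 at day 4 with rescue. Libraries labelled si-Rsl24d1 read 7.58, 7.51 and 7.55 at day 0 and 7.65, 7.44 and 7.46 at day 4 without rescue, and 7.86, 7.80 and 7.71 at day 0 and 7.49, 7.45 and 7.57 at day 4 with it. Npm3, a relative of Npm1, changed by -0.12 (SE 0.051, adjusted p = 0.049) in si-CTL cells without rescue and by -0.47 with rescue. It was called lower in both rescued arms and in neither without rescue, where its days overlapped in cells labelled si-Rsl24d1.

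**Figure D3:**
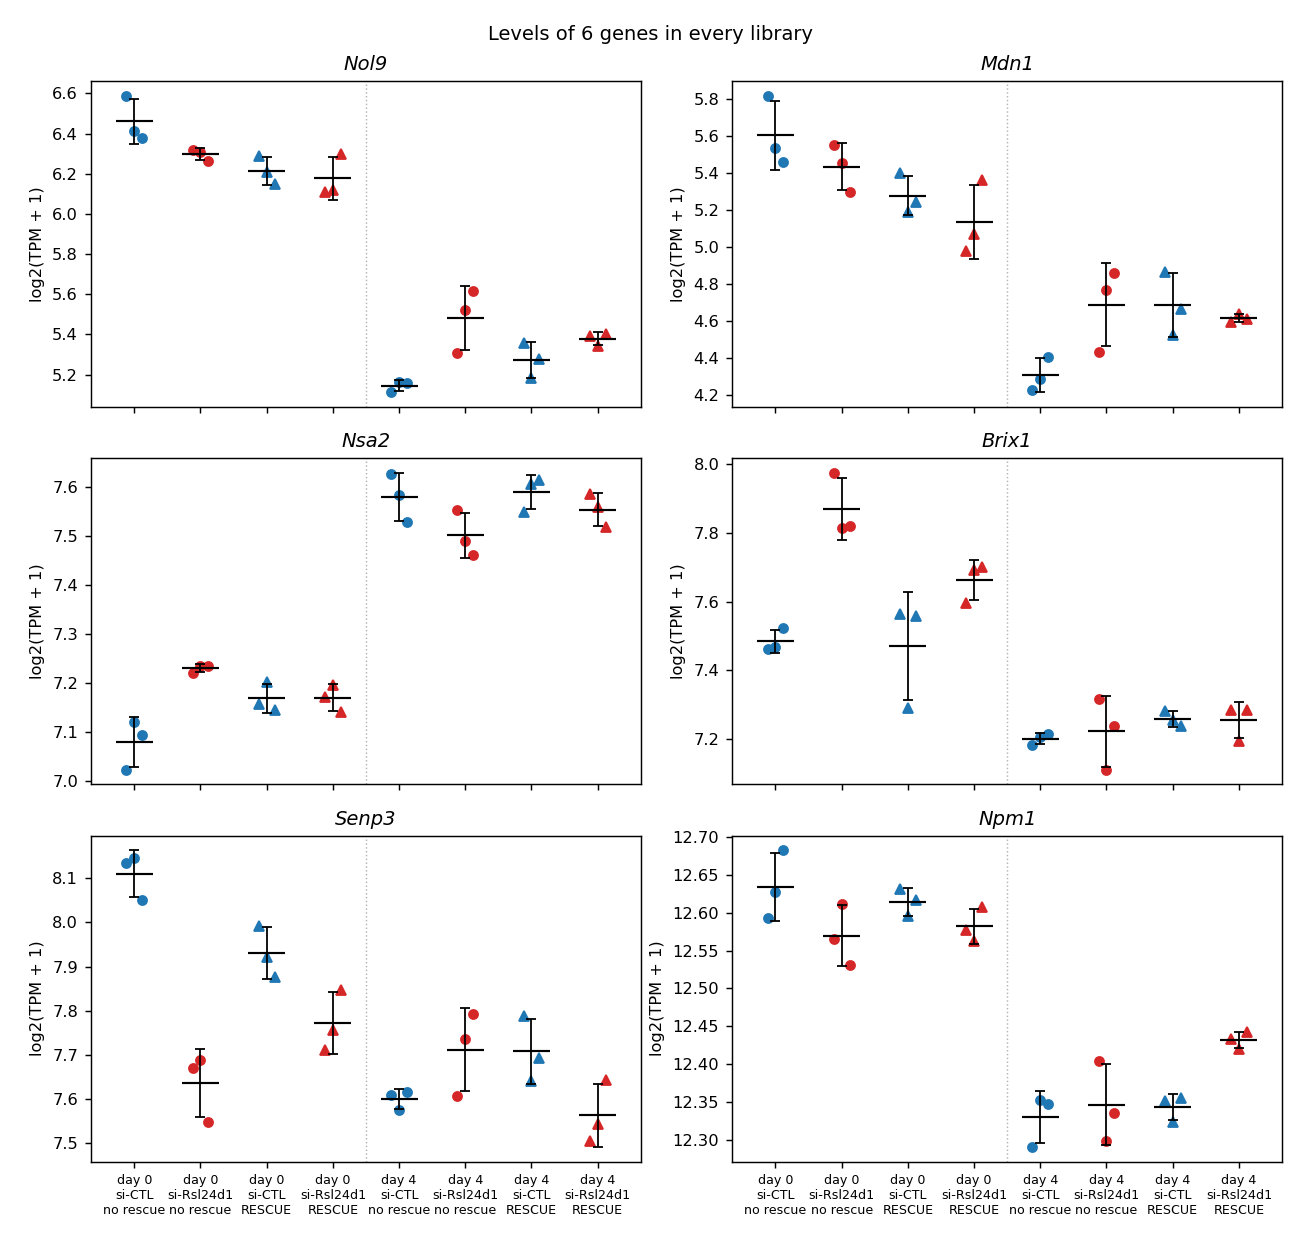
Log2(TPM + 1) (y axis) of Nol9, Mdn1, Nsa2, Brix1, Senp3 and Npm1 in each library of the 8 groups (x axis), with colours and symbols for siRNA and rescue, and bars for mean and SD (n = 3). Nol9 and Mdn1 are lower and Nsa2 is higher at day 4 in every arm, and Brix1 and Senp3 are separated between the siRNAs at day 0 without rescue.

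The 4 arms share no library in the comparison of day 4 with day 0, and each gave more lower than higher members. In cells labelled si-Rsl24d1 without rescue, 28 members were lower and 3 higher (all genes 26.4% and 29.4%), with medians of -0.42 for members and 0.019 for all genes. In rescued si-CTL cells, 29 were lower and 3 higher (all genes 22.4% and 36.8%), with medians of -0.34 and 0.12. In rescued cells labelled si-Rsl24d1, 31 were lower and 3 higher (all genes 25.8% and 32.4%), with medians of -0.41 and 0.065. The members called higher were Gnl2 and Nsa2 in all 3, with Nvl in both arms labelled si-Rsl24d1 and Wdr12 in rescued si-CTL cells. Under median of ratios scaling these 3 arms had 28, 34 and 33 members lower, against 29%, 30.7% and 30.6% of all genes.

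In all 4 arms together, 24 members were called lower each time, against 14.8% of all genes. They include Nol9, Mdn1, Nle1, Rrs1, Bop1, Ddx51, Nop2, Gnl3 and Npm1. Of the 24, Brix1, Rpf1 and Npm1 lost their call in si-CTL cells without rescue under median of ratios scaling. Rpf1 also lost it in cells labelled si-Rsl24d1 without rescue. Nsa2 was called higher in all 4, as were 16.8% of all genes, and Gnl2, Nvl, Wdr12 and Nsa2 were called lower in none, like 54.9% of all genes. The size of a member's change was ordered alike between arms. Across the 41 genes, which are not independent replicates, the changes in si-CTL cells without rescue correlated with those of the other arms at a Pearson r of 0.79 to 0.83 and a Spearman rho of 0.812 to 0.833. Over all 16447 genes r was 0.684 to 0.765 and rho was 0.708 to 0.785.

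**Figure D4:**
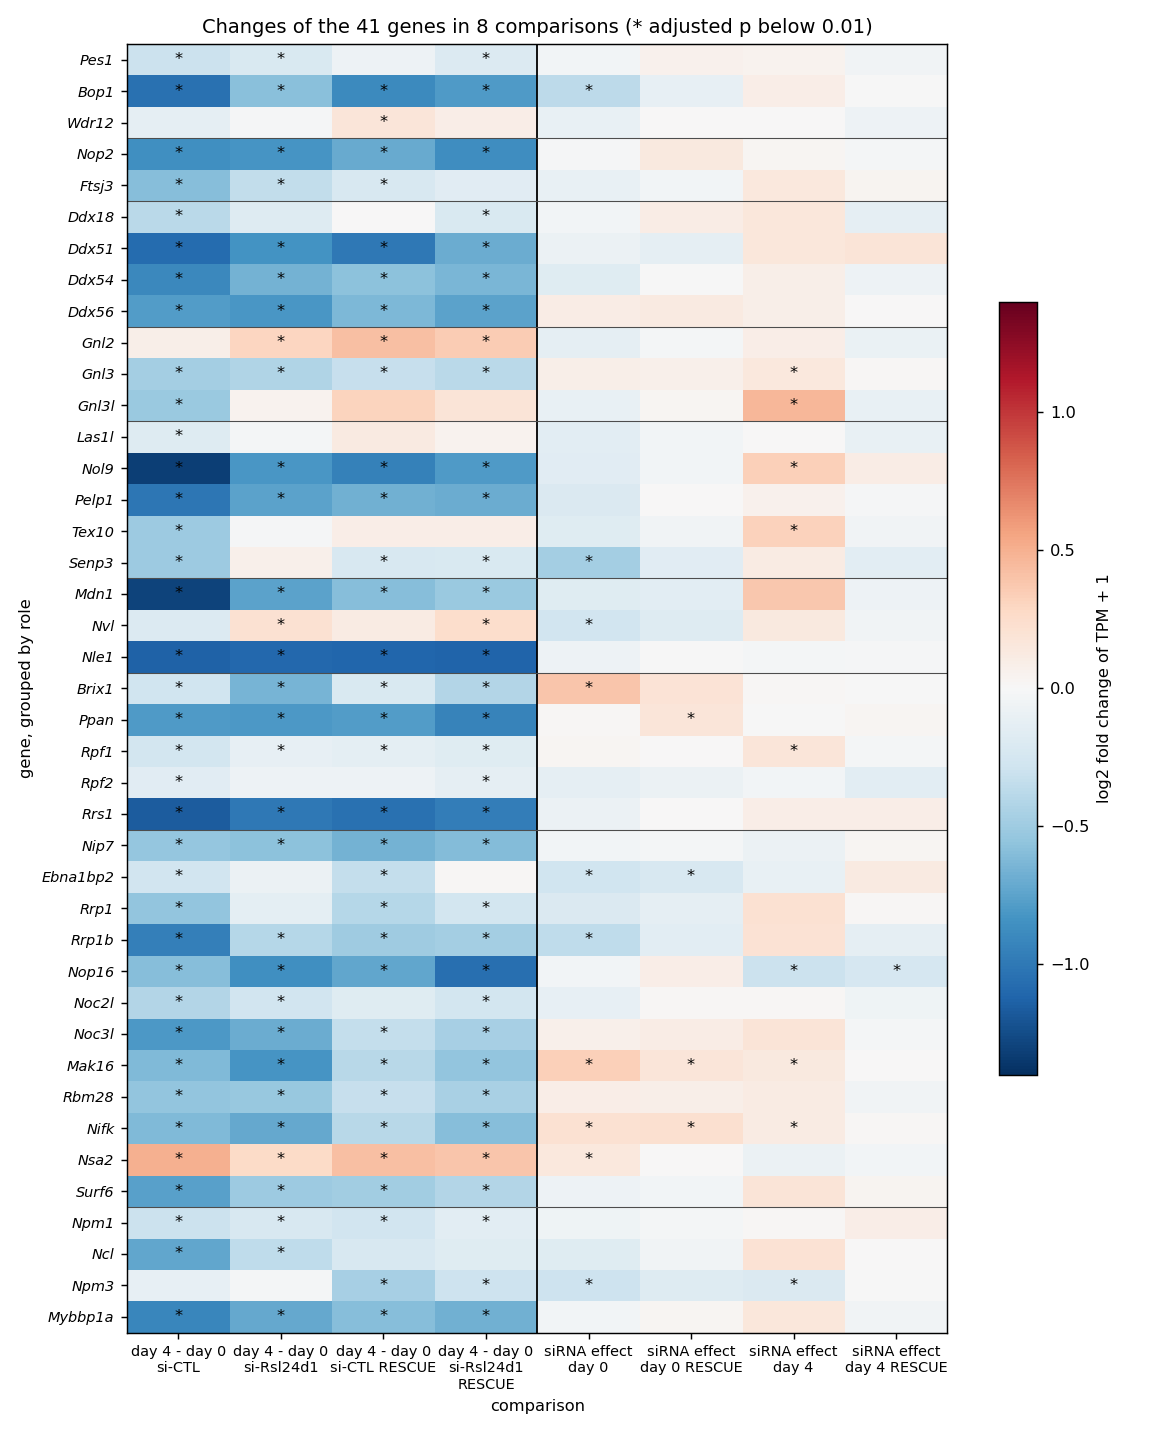
Log2 fold changes of TPM + 1 of the 41 genes (rows, by role) in 8 comparisons (columns), blue for lower and red for higher, with asterisks at an adjusted p below 0.01. The 4 columns of day 4 against day 0 hold 36, 28, 29 and 31 genes called lower, and the 4 columns of the siRNA effect hold 6, 1, 2 and 1.

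Genes of neighbouring steps moved the same way at day 4. Of 24 other pre-60S factors, 22 were called lower in si-CTL cells without rescue and 0 higher, with a median of -0.51, led by Urb1 (-1.16), the helicase Ddx27 (-1.05) and Ccdc86. All 8 core proteins of snoRNPs, the particles that guide rRNA modification, were called lower, with Gar1 (-0.81), Nop10 (-0.81) and Dkc1 (-0.77) ahead. Of the Myc family of transcription factors and its partner Max, Myc changed by -2.86 (SE 0.071, adjusted p = 4.5e-17), Mycn by -1.69 (SE 0.082, adjusted p = 7.4e-13) and Max by -0.34 (SE 0.052, adjusted p = 9e-06). Background shares are those given above for the members, and nothing is read from these lists as particular to them.

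Cell type markers moved with the day as well. Among 8 pluripotency markers in si-CTL cells without rescue, 6 were called lower, led by Tdgf1 (-1.69), Pou5f1 (-1.10) and Klf4 (-0.84), and 2 higher, Dppa5a (1.03) and Nanog (0.79). Their summed level was 5574 to 5733 TPM at day 0 and 7026 to 7210 TPM at day 4. Dppa5a weighs most in this sum, with a mean of 2620 TPM at day 0 and 5346 TPM at day 4. Pou5f1 went from 1112 to 519.1 TPM, so the sum does not stand for most of the markers. Summed extraembryonic endoderm markers went from 4.29 to 5.89 TPM to 14.4 to 18.7 TPM (4 of 4 tested called higher), and summed fibroblast markers from 37.1 to 46.7 TPM to 90.6 to 99.6 TPM (4 of 5 called higher, 1 lower). No marker of these lists was at 0 throughout a group. Their part in the changes of the nucleolar factors was not tested.

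The siRNA comparison at day 0 asks how nucleolar factors responded when a fellow assembly factor was depleted. The changes were small. In si-Rsl24d1 against si-CTL cells without rescue, limma called 4 of 41 members (9.76%) higher and 6 (14.6%) lower. Of all genes, 14.3% were called higher and 16.1% lower. No member passed 1.8-fold, where 3.4% of all genes rose and 0.772% fell past it, and 22 of 41 had an unadjusted p below 0.05, as had 47.6% of all genes. The median was -0.083 for members and -0.011 for all genes. The change was negative for 31 of the 41 members and for 51.6% of all genes. For 20 members the si-Rsl24d1 libraries lay below all si-CTL libraries, and for 7 above, against 27.3% and 23.8% of all genes. With median of ratios scaling, 15 members were lower and 4 higher, against 18.7% and 14.9% of all genes. On that scale and in the count without overlap, the lower share was above that of all genes and the higher share below it.

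**Figure D5:**
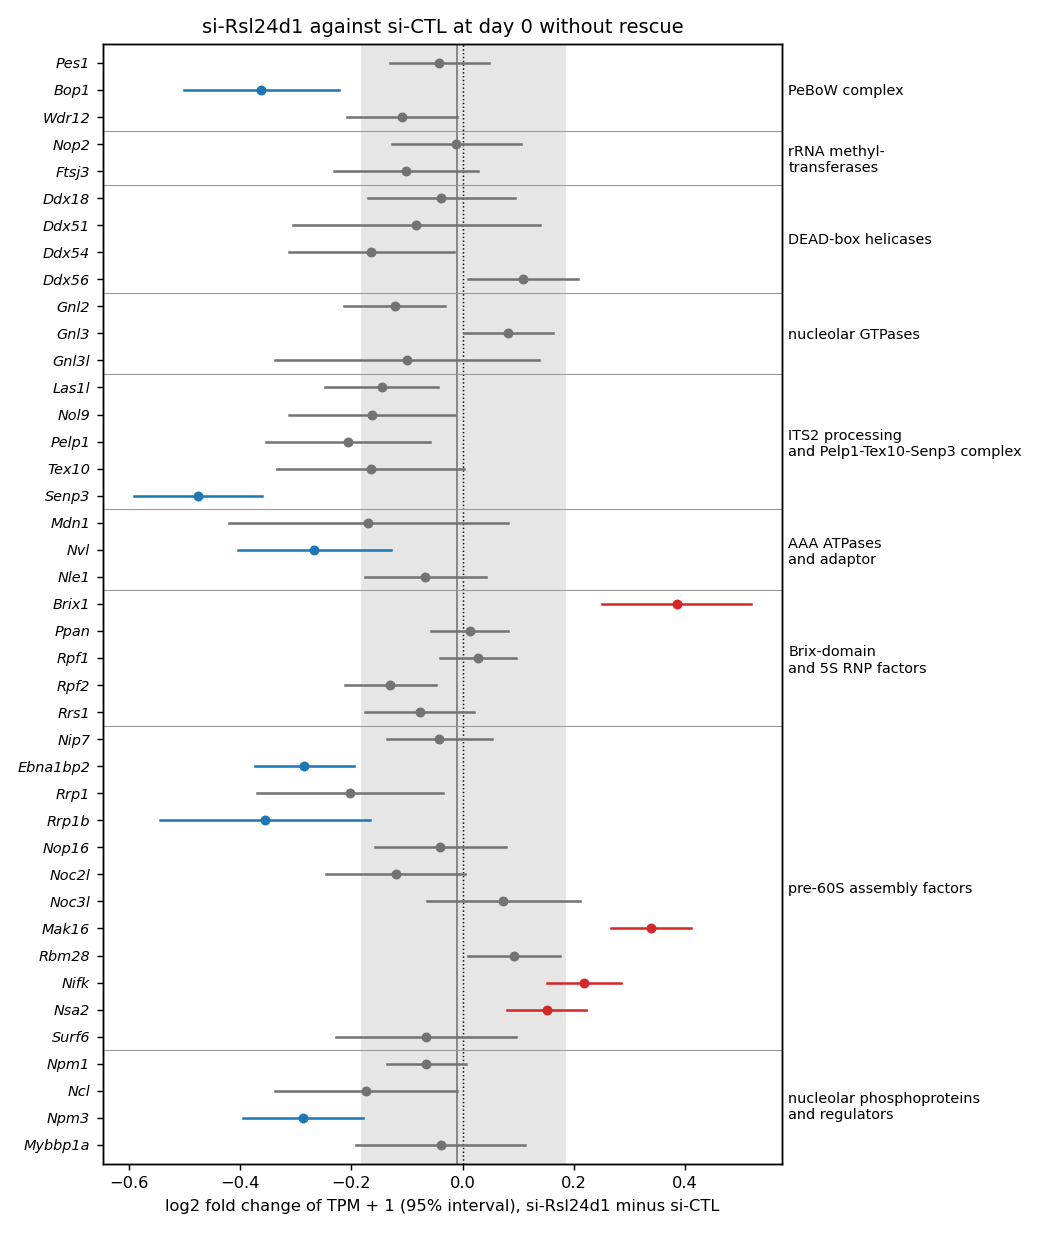
Log2 fold change of TPM + 1 between si-Rsl24d1 and si-CTL cells at day 0 without rescue (x axis) for the 41 genes (y axis, by role), with 95% intervals. Red genes (Brix1, Mak16, Nifk and Nsa2) were called higher, the 6 blue genes lower and grey genes were not called, and the shaded band spans the middle 50% of all 16447 genes around a median of -0.011.

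The 4 factors called higher were Brix1, Mak16, Nifk and Nsa2. Brix1, of which all 3 si-Rsl24d1 libraries lay above the si-CTL libraries, changed by 0.38 (SE 0.063, adjusted p = 5.5e-05), from 178 to 233 TPM. Mak16 changed by 0.34 (SE 0.034, adjusted p = 1.1e-07), from 7.56 ± 0.051 to 7.90 ± 0.02 on the log2 scale (mean ± SD, n = 3), Nifk by 0.22 (SE 0.031, adjusted p = 1.1e-05) and Nsa2 by 0.15 (SE 0.034, adjusted p = 0.0012). Groups did not overlap for any of the 4. Mak16 and Nsa2 overlap Tti2 and Gfm2 on the other strand.

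The deepest fall was that of Senp3, -0.48 (SE 0.054, adjusted p = 6.3e-07) by limma, from 276 to 198 TPM. Its 3 si-Rsl24d1 values, at most 7.69, all lay below the lowest si-CTL value of 8.05. Bop1 changed by -0.36 (SE 0.065, adjusted p = 0.00016), Rrp1b by -0.36 (SE 0.089, adjusted p = 0.0032), Npm3 by -0.29 (SE 0.051, adjusted p = 0.00014), Ebna1bp2 by -0.28 (SE 0.042, adjusted p = 1.7e-05) and Nvl by -0.27 (SE 0.065, adjusted p = 0.0025). These 6 come from 5 roles. The other members in the roles of Bop1, Senp3, Nvl and Npm3 were not called. Among the 12 assembly factors, which include Rrp1b and Ebna1bp2, 3 were called higher (Mak16, Nifk and Nsa2) and 7 were not called. Pes1, with Bop1 in PeBoW, changed by -0.042, and Pelp1 and Tex10, with Senp3, by -0.21 (adjusted p = 0.023) and -0.17 (adjusted p = 0.11). None of the 4 helicases, 3 GTPases or 2 methyltransferases was called, and Npm1, Ncl and Gnl3 changed by -0.065, -0.17 and 0.082 with adjusted p = 0.13, 0.08 and 0.092. Without day 0 si-Rsl24d1 replicate 3, 4 members were called lower (all genes 12.6%), and without si-CTL replicate 1 there were 3 higher and 5 lower (all genes 13.9% and 13.1%). The calls of Bop1, Brix1, Ebna1bp2, Mak16, Nifk, Npm3 and Senp3 held under all alternatives and with any 1 library left out.

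Other pre-60S factors responded in the same comparison with 9 of 24 called lower (37.5%, against 16.1% of all genes) and 1 higher. Among those called, Gtpbp4 (-0.39), Wdr74 (-0.32) and Eif6 (-0.29), which keeps the subunits apart, fell most, and Ccdc86 rose (0.23). Of the snoRNP core proteins, 4 of 8 were called lower, led by Nop10 (-0.38). Myc changed by -0.54 and Mycn by 0.38, both called. Of 8 pluripotency markers, 6 were called lower too, led by Esrrb (-1.09) and Zfp42 (-0.96), as were 2 of 5 fibroblast markers, with summed levels of 37.1 to 46.7 TPM in si-CTL and 27.6 to 28.7 TPM in si-Rsl24d1 cells. The part of these in the nucleolar changes was not tested.

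With rescue at day 0, the effect of si-Rsl24d1 was called for 4 members. Nifk (0.23), Mak16 (0.17) and Ppan (0.17) were higher and Ebna1bp2 (-0.22) was lower, that is 7.32% and 2.44% of members against 8.1% and 5.64% of all genes. Median of ratios scaling gave 3 higher and 3 lower, against 8.98% and 8.87% of all genes, and a fit of these 6 libraries alone called none of the 4 and no other member, against 2.91% and 1.24% of all genes. Senp3 and Bop1, which led the falls without rescue, changed by -0.16 and -0.11 and were not called, and Brix1 changed by 0.19. The difference between the 2 siRNA effects was tested directly as an interaction, and limma called 0 of 41 members (7 had an unadjusted p below 0.05, as had 17.6% of all genes), against 0.906% of all genes higher and 1.18% lower. Median of ratios scaling called 1 member, Senp3, with a term of 0.30 (adjusted p = 0.00118), against 1.33% and 1.69% of all genes.

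Within si-Rsl24d1 cells at day 0, the rescued libraries were higher for Npm3 by 0.24 (SE 0.051, adjusted p = 0.0018) and lower for Mak16, whose change was -0.26 (SE 0.034, adjusted p = 2e-05). No other member was called, against 3.06% of all genes higher and 12.2% lower, and median of ratios scaling gave 6 higher and 1 lower, against 8.54% and 7.08% of all genes. Without rescued si-Rsl24d1 replicate 3, 1 member was higher and 5 were lower (all genes 3.16% and 17.1%), and without rescued replicate 1 or unrescued replicate 2 the call of Npm3 was lost. Within si-CTL cells at day 0, rescue gave 0 calls by limma, where 0.0122% of all genes were called. An unadjusted p below 0.05 was found for 30 of 41 members and 41% of all genes. There, 29 members lay lower in all 3 rescued libraries than in all 3 without rescue, against 37.6% of all genes, and the medians were -0.15 for members and -0.12 for all genes. After median of ratios scaling the members' median was -0.0043.

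At day 4, where the targeted transcript was not called lower in the libraries labelled si-Rsl24d1, 7 members were called higher and 2 lower (17.1% and 4.88%), against 24.9% and 6.04% of all genes. Gnl3l (0.46), Nol9 (0.34) and Tex10 (0.33) were highest among those called, followed by Rpf1 (0.17), Gnl3 (0.14), Mak16 (0.13) and Nifk (0.12). Nop16 (-0.30) and Npm3 (-0.20) were lower. All genes together were shifted by 0.13, and the direction of the members depended on the scale. Under median of ratios, 3 members were higher and 13 lower, against 14.1% and 15.2% of all genes, and Gnl3, Mak16 and Nifk changed sign. The si-Rsl24d1 replicate 1 stood below the other replicates in the members' mean, at 6.28 against 6.37 and 6.39, and without it 12 members were higher and 2 lower, against 33.3% and 6.92% of all genes. Without si-CTL replicate 1 or 2, or si-Rsl24d1 replicate 2 or 3, 2 to 4 were higher and 1 lower, against 14.2 to 17.5% and 4.01 to 4.89% of all genes. A fit of these 6 libraries alone called 0 members by limma (all genes 3.69% and 1.26%), where 23 members and 53.1% of all genes had an unadjusted p below 0.05 in the fit of all libraries. Mitochondrial transcripts made up 6.42 to 6.81% of TPM in the si-CTL and 7.01 to 8.57% in the other libraries, and fibroblast markers summed to 90.6 to 99.6 and 170.5 to 238.7 TPM. Their part in the result was not tested.

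With rescue at day 4, Nop16 was the 1 member called in the siRNA comparison, at -0.24 (SE 0.055, adjusted p = 0.0075), against 3.53% of all genes lower and 2.33% higher. Its call was lost when any of the 6 libraries was left out. Rescue within cells labelled si-Rsl24d1 gave 1 call, Ebna1bp2 at 0.18 (SE 0.042, adjusted p = 0.0084), against 0.936% higher and 4.23% lower among all genes. That call was lost without replicate 2 or 3 of the unrescued or replicate 1 or 3 of the rescued libraries. Within si-CTL cells it gave 6 higher, Tex10 (0.39), Ddx18 (0.26), Gnl2 (0.20), Mak16 (0.14), Nifk (0.14) and Gnl3l (0.46), and 2 lower, Npm3 (-0.21) and Ppan (-0.16), against 8.85% and 1.34% of all genes. Median of ratios scaling turned this into 2 higher and 7 lower, against 5.75% and 5.42% of all genes. Without day 4 si-CTL replicate 1 or 2, or rescued si-CTL replicate 1, limma called 0 members and 0.219 to 1.68% of all genes higher, where 19 of 41 members and 39% of all genes had an unadjusted p below 0.05 with all libraries. Without si-CTL replicate 3 it called 3 (all genes 6.54% higher and 0.967% lower), and without rescued replicate 3 it called 1 (1.63% and 0.261%). Rsl24d1 changed by 0.27 in that comparison.

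Whether the siRNA effect differed between the days without rescue was tested as an interaction, and 13 members were called, 10 with a more positive effect at day 4 and 3 with a more negative one (24.4% and 7.32%), against 22.1% and 8.83% of all genes. Senp3 (0.59), Gnl3l (0.56) and Rrp1b (0.55) had the largest positive terms, and Brix1 (-0.36), Nsa2 (-0.23) and Mak16 (-0.21) the negative ones. The medians were 0.15 for members and 0.14 for all genes. Under median of ratios, 7 were more positive and 6 more negative, against 15.8% and 13% of all genes. Without day 4 si-Rsl24d1 replicate 2, 6 were more positive and 2 more negative, against 17.1% and 8.03% of all genes. Rsl24d1 itself had a term of 1.91.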

How the data were processed

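Total RNA of 24 libraries of CGR8 cells was sequenced and quantified by the authors, who deposited 1 table of log2 values, log2(TPM + 1), for 54242 gene symbols. The study's methods give Salmon with a protein-coding transcript index of mouse GRCm38 and a stranded total RNA kit. The submitters' processing notes instead list Salmon 1.4.0, STAR 2.7.8a and build GRCh38, and the labels a poly-A kit. The deposited values are not confined to protein-coding genes, as 13569 of the 16447 tested symbols are protein-coding in gencode vM21. Each column sums to 1000000 TPM once the log is undone, so read depth is unknown and no counting error can be given. Copies of the same sequence share reads in a way that the table does not show.

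Groups were taken from the sample titles. Genes with a mean of at least 0.5 over the 24 libraries were tested (16447). A model of 8 group means was fitted with limma 3.58.1 in R 4.3.3 (empirical Bayes with a mean-variance trend), and 14 comparisons were read from it, each adjusted by the Benjamini-Hochberg method. Calls used the study's thresholds, an adjusted p below 0.01 and, for a second count, more than 1.8-fold (0.848 on the log2 scale). The procedure was tested on simulated data. No library pair was identical. All 41 genes are given by role. Values of every library are given for 22 of them: per role, the largest change in the day 0 siRNA comparison and in day 4 against day 0, the 3 largest called rises and falls of both, the highest and lowest level, and Npm1, Ncl and Gnl3. Genes of other lists were named from the 3 largest called rises and falls. Values of the RA response markers are not reported here. The members and lists were chosen with earlier results of these data known.

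Alternatives were 0.1 or 2 added to TPM, no filter, a mean of at least 1.5, median of ratios scaling, a block for replicate number, an adjusted p of 0.05, fits restricted to the libraries of the comparison, and each library left out. Positions and overlaps come from gencode vM21 on GRCm38, and promoter letters from RefSeq on GRCm38.p6. Python 3.11.15, pandas 2.3.3 and numpy 2.4.6 were used, with matplotlib 3.10.9 for figures.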

Additional observations from a re-analysis of the deposited data

Results flagged for a closer look

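For 13 genes the effect of the siRNA label differed between day 0 and day 4 without rescue, by the interaction term of limma (log2 scale, day 4 effect minus day 0 effect). The term was positive for 10 (24.4%) and negative for 3 (7.32%), against 22.1% and 8.83% of all genes, so the shares were close to those of all genes. It was 0.59 for Senp3 (adjusted p = 5.92e-06), 0.56 for Gnl3l (adjusted p = 0.00741), 0.55 for Rrp1b (adjusted p = 0.0016), 0.50 for Nol9 (adjusted p = 0.000512), 0.49 for Tex10 (adjusted p = 0.00163) and 0.45 for Bop1 (adjusted p = 0.000622). It was 0.41 for Rrp1 (adjusted p = 0.00556), 0.41 for Nvl (adjusted p = 0.0015), 0.38 for Ncl (adjusted p = 0.00894) and 0.22 for Gnl2 (adjusted p = 0.00677). The term was -0.36 for Brix1 (adjusted p = 0.00284), -0.23 for Nsa2 (adjusted p = 0.000715) and -0.21 for Mak16 (adjusted p = 0.00182). Bop1, Mak16, Nol9, Nsa2, Nvl, Rrp1b, Senp3 and Tex10 held under all alternatives and with any 1 library left out. The Rsl24d1 transcript was not called lower in the day 4 libraries labelled si-Rsl24d1, and all 16447 genes had a median term of 0.14.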

How the results depend on the processing

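Median of ratios scaling changed the sign of 131 of 574 values (41 members in 14 comparisons), most often for siRNA at day 4 without rescue (22 members), rescue in si-Rsl24d1 cells at day 0 (24) and rescue in si-CTL cells at day 4 (18). Of these, 12 were called on at least 1 of the scales, and the cause was not tested. For the day 4 siRNA comparison without rescue these were Pes1 at -0.12, Wdr12 at -0.16, Nop2 at -0.14, Gnl3 at -0.024, Las1l at -0.16, Noc2l at -0.15, Mak16 at -0.036 and Nifk at -0.051. The others were Nop2 at 0.11 and Gnl2 at 0.097 for rescue in si-Rsl24d1 cells at day 0, Noc2l at -0.12 for rescue in si-CTL cells at day 4, and Ddx18 at -0.14 for day 4 against day 0 in rescued si-CTL cells.

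Counts of called members moved by over 1.5 times as follows, with the share of all genes called in parentheses. Median of ratios scaling gave 19 (33.7%) for the day 0 siRNA comparison, 16 (29.3%) for that of day 4 and 0 (6.29%) for that of day 4 with rescue, 7 (15.6%) and 2 (3.75%) for rescue in si-Rsl24d1 cells at day 0 and day 4, and 1 (3.02%) for the interaction of siRNA and rescue. An adjusted p of 0.05 gave 7 (21.9%) for siRNA at day 0 with rescue, 15 (46.2%) and 3 (12.7%) for siRNA at day 4 without and with rescue, 7 (30.9%) and 3 (10.5%) for rescue in si-Rsl24d1 cells at day 0 and day 4, 22 (24.9%) and 16 (26.3%) for rescue in si-CTL cells at day 0 and day 4, 21 (44.5%) for the interaction of siRNA and day, and 2 (5.34%) for that of siRNA and rescue. Fits restricted to the libraries compared gave 0 (4.15%) for siRNA at day 0 with rescue, 0 (4.95%) and 0 (2.75%) for siRNA at day 4 without and with rescue, 0 (3.97%) and 0 (0.0547%) for rescue in si-Rsl24d1 cells at day 0 and day 4, and 5 (7.65%) for rescue in si-CTL cells at day 4. No filter gave, at day 4, 0 (2.41%) for siRNA with rescue, 0 (2.11%) for rescue in si-Rsl24d1 cells and 4 (2.29%) for rescue in si-CTL cells.

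With 1 library left out, the counts ranged from 8 to 10 for siRNA at day 0, from 36 to 37 for day 4 against day 0 in si-CTL cells, from 8 to 19 for the interaction of siRNA and day, from 1 to 6 and from 0 to 1 for rescue in si-Rsl24d1 cells at day 0 and day 4, from 3 to 14 and from 0 to 0 for siRNA at day 4 without and with rescue, and from 0 to 6 for rescue in si-CTL cells at day 4. The share of all genes called also changed with the library left out, as given above for several of these comparisons. These ranges therefore do not describe the members alone.

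A block for replicate number gave, at day 4, 0 (5.06%) for siRNA with rescue, so that the call of Nop16 was lost, 0 (4.15%) for rescue in si-Rsl24d1 cells, so that Ebna1bp2 was lost, and 4 (6.34%) for rescue in si-CTL cells, in place of 8. Same-numbered libraries of different groups did not deviate together (mean r of -0.0173 over 84 pairs, 4 above 0.1, and 0.0087 over 168 pairs of other numbers), so the numbers were not taken as pairs. The lower calls of day 4 against day 0 in si-CTL cells without rescue were 36 with and without the block, which moved no other count by over 1.5 times. Since TPM keep no depth, whether a lack of calls reflects few reads cannot be judged, and 3 libraries a group limit the smaller changes.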
